A study of Mus musculus with 5 samples.

Results

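The genes described here handle retinoic acid, the hormone that cells make from vitamin A. They are 9 genes in 3 roles: the binding proteins Crabp1 and Crabp2, the enzymes Aldh1a1, Aldh1a2, Aldh1a3 and Dhrs3, and the receptors Rara, Rarb and Rarg. They were chosen by symbol, out of 17923 genes listed in at least 1 library, because Crabp1 was lower and Aldh1a1 higher in every library labelled BVE-Ctnnb1null. The values of the 9 genes in that comparison are therefore given as a description, without a test.

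The cells were lines grown from mouse thyroid tumors driven by the BRAFV600E oncogene, which both groups carry. BVE-Ctnnb1wt cells (2 libraries) kept Ctnnb1, the gene of β-catenin, and BVE-Ctnnb1null cells (3 libraries) are labelled as carrying its deletion. The wt libraries carry the same line name and passage number, 20, and differ in that replicate 2 but not replicate 1 is labelled with thyroid-stimulating hormone (TSH), so the spread between them is that of 1 line in different media and may be technical. The null libraries come from BVECTN_4 at passage 8 without TSH (null 1), BVECTN_4A at passage 11 (null 2) and BVECTN_5 at passage 7 (null 3), with TSH not stated for the latter pair and no word on whether BVECTN_4 and BVECTN_4A share an origin. Elsewhere the culture protocol puts wt cells at about 25 passages and null cells at about 20, and names 4 mU/mL TSH in the medium of the first cultures. The promoter of the Cre enzyme, the strain and the age of the donor mice are not given in the sources used here. Effects of cell line and passage number cannot be told apart from those of the genotype.

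The files held 30432698 and 30713060 estimated reads for wt 1 and wt 2, and 29929656, 29359964 and 29415985 for null 1, null 2 and null 3. A gene at 0 could still have up to 3 reads by counting error alone, which is 0.10 CPM (counts scaled to the library total) in each library. Levels are given as FPKM, which is scaled to transcript length and library total, so that genes can be set beside each other. Ctnnb1 itself was at 59.3 and 73.8 FPKM in wt cells against 124.6, 196.3 and 117.8 in null 1, 2 and 3. In FPKM its RNA was thus higher, not lower, in every library labelled null, while in CPM after TMM normalization (a scaling for library composition) null 3, at 344, lay below wt 2, at 356. The values do not separate the deleted exons, so this does not check the deletion, and each group keeps the name of its label below.

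Retinol enters the cell, is oxidized to retinal by retinol dehydrogenases, and is oxidized again to retinoic acid by the ALDH1A enzymes. DHRS3 runs the first step backward, from retinal to retinol. CRABP1 and CRABP2 carry retinoic acid in the cytoplasm, CRABP2 toward the nucleus and CRABP1 mostly toward its breakdown by CYP26 enzymes. In the nucleus the receptors RARα, RARβ and RARγ bind DNA as pairs with a retinoid X receptor (RXR), at pairs of short repeats called retinoic acid response elements. Retinoids have long been studied in thyroid cancer as agents of redifferentiation.

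The response element is shown here for Rarb, because this receptor gene is a textbook target of its own hormone. It consists of a pair of half-sites, each of which reads AGGTCA (the form most often cited), or its variant GGGTCA, or the form AGTTCA, or the form GGTTCA, in the same direction, with 5 bases of any kind between them, and was searched for on both strands. In the RefSeq promoter entry of Rarb (GRCm38.p6, minus strand) it lies 53 to 37 bases before that entry's start, which is 67 bases from the start of the listed transcript, at chr14:16575513-16575529. The capitals mark the element.
Rarb element: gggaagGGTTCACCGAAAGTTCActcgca
Of 32851 RefSeq promoter entries of the same length (240 bases, ending 11 bases before the start), 28 hold such a pair of half-sites, 0.0852%. Entries were found for 7 of the 9 genes, 14 entries in all, and among these 14 the Rarb entry alone held the element. With 2 bases between the half-sites, 0 of the 14 entries matched, against 0.164% of all entries.

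The windows of Crabp1 and Aldh1a1 are shown because the set was chosen for these genes. Crabp1 lies on the plus strand (GRCm38.p6, chr9:54764498-54764737), and capitals mark its 4 GC boxes (GGGCGG on either strand).
Crabp1 window: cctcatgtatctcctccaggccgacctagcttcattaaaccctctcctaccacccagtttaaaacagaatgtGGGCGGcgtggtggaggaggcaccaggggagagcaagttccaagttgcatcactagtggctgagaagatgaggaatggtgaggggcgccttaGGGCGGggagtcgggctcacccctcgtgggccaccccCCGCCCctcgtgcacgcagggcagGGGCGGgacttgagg
Aldh1a1 lies on the plus strand (GRCm38.p6, chr19:20601718-20601957), and this window, whose start lies 7 bases from that of the listed transcript, has no GC box and so no capitals.
Aldh1a1 window: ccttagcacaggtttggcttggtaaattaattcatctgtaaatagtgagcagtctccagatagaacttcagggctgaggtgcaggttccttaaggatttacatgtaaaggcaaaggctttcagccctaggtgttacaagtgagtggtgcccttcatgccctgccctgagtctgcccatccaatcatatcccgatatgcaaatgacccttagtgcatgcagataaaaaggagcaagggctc
GC boxes were found in 31.3% of all entries and in 5 of the 14, namely that of Crabp1 and some of those of Rara and Rarg. The motif of the TCF/LEF factors that β-catenin works with (ATCAAAG or its variants with another pair of first letters, namely TTCAAAG, then also AACAAAG, then also TACAAAG, on either strand) was found in 14.4% of all entries and in 4 of the 14. These were 2 entries of Dhrs3, at or 60 bases from the start of a listed transcript, 1 of Rara, 4460 bases from the nearest such start, and 1 of Aldh1a1, 109378 bases away. The 2 Dhrs3 entries overlap and hold the same site, and 2 overlapping entries of Rara likewise hold the same GC boxes. These matches describe the letters of the windows and nothing more.

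Among the binding proteins, Crabp1 was one of the most abundant RNAs of the wt cells and was nearly gone from every null library. Its FPKM came to 2302 and 2706 in wt cells against 5.06, 16.8 and 3.63 in null 1, 2 and 3. Among the listed genes it ranked 69 in wt 1 and 65 in wt 2 by FPKM, while its rank in null 1, 2 and 3 was 7128, 4036 and 8302. The groups lay far apart, with means of 2504 ± 286 (SD, n = 2) and 8.5 ± 7.23 (SD, n = 3), 295-fold lower in the null libraries. The counts behind these values were 50726 and 60254 against 109, 355 and 77, so counting error was small on both sides. In bulk RNA, fewer cells that express a gene and less RNA per cell cannot be told apart. That Crabp1 was lower in every null library is what it was chosen for. Among the 956 genes tested that were so in FPKM, it was number 4 by fitted log2 fold change, at -8.82. This place comes from the same comparison as the choice and adds no support.

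Crabp2 was also lower in every null library, and lowest in null 2. It measured 8.74 and 11.98 FPKM in wt cells against 7.27, 0.77 and 5.85 in null 1, 2 and 3. Null 1 and null 3 lay nearer to the wt libraries than null 2, which was well below the other 4. The fitted log2 fold change was -1.73, and -1.32 without null 2. The summed FPKM of both binding proteins was 2311 and 2718 in wt cells against 12.3, 17.6 and 9.48 in the null libraries. Crabp1 made up 99.6% of that sum in both wt libraries. Its share was 41.0%, 95.6% and 38.3% in null 1, 2 and 3, so Crabp2 was the more abundant of the pair only in null 1 and null 3.

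**Figure D1:**
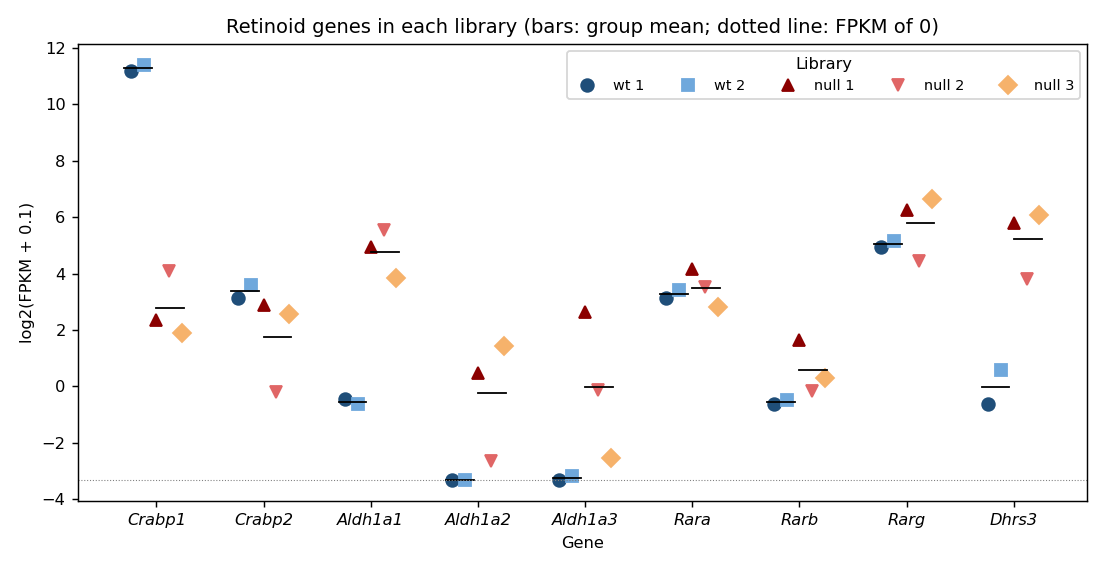
Each point is the log2(FPKM + 0.1) of a retinoid gene in 1 library, with wt libraries in blue and null libraries in red and orange, and short bars give the group means. Crabp1 was above 2300 FPKM in both wt libraries and at 16.8 or less in the null libraries, while Aldh1a1 and Dhrs3 lay higher in all 3 null libraries and Rara and Rarg overlapped between the groups.

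The enzymes that make retinoic acid were at 0.64 FPKM or less in the wt cells and had reads in every null line, each line with its own mixture. Aldh1a1, the most abundant of them, was at 0.64 and 0.54 FPKM in wt cells against 30.7, 46.1 and 14.4 in null 1, 2 and 3. The means were 0.59 ± 0.0707 (SD, n = 2) and 30.4 ± 15.9 (SD, n = 3), 51.5-fold higher in the null libraries. Every null library was far above both wt libraries, with null 2 highest.

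Aldh1a2, the main enzyme of retinoic acid synthesis in the early embryo, was listed in none of the wt libraries and had 87, 4 and 174 counts in null 1, 2 and 3. Taking 3 counts in each wt library as the limit, it was at least 20.5-fold higher over the null libraries after TMM normalization, and at least 30.4-fold by library totals. Null 3 held most of the counts behind these bounds, and null 2, with 4 counts, was itself barely above the limit of 3. Aldh1a3 had 0 and 1 counts in the wt libraries, against 641, 83 and 7 in the null libraries, a ratio of 339 after TMM normalization, with an exact 95% binomial interval from 60.6 to 13391 that covers counting error only. By library totals the ratio was 504. Null 1 held most of these counts.

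The order of the null lines thus differed between the enzymes: null 2 was highest for Aldh1a1, null 3 for Aldh1a2 and null 1 for Aldh1a3. The summed FPKM of the 3 genes was 0.64 and 0.55 in wt cells against 38.2, 47.0 and 17.0 in null 1, 2 and 3. Aldh1a1 made up 80.5%, 98.1% and 84.3% of it in the null libraries. The remainder was mainly Aldh1a3 in null 1 (16.2%) and mainly Aldh1a2 in null 3 (15.3%).

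Dhrs3, which returns retinal to retinol and is itself known to be induced by retinoic acid, was at 0.55 and 1.38 FPKM in wt cells against 55.6, 14.0 and 67.4 in null 1, 2 and 3. The means were 0.965 ± 0.587 (SD, n = 2) and 45.7 ± 28.0 (SD, n = 3), 47.3-fold higher in the null libraries. The lowest null library was still above both wt libraries, and null 1 and null 3 were close to each other. The order of the null lines was the reverse of that for Aldh1a1.

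**Figure D2:**
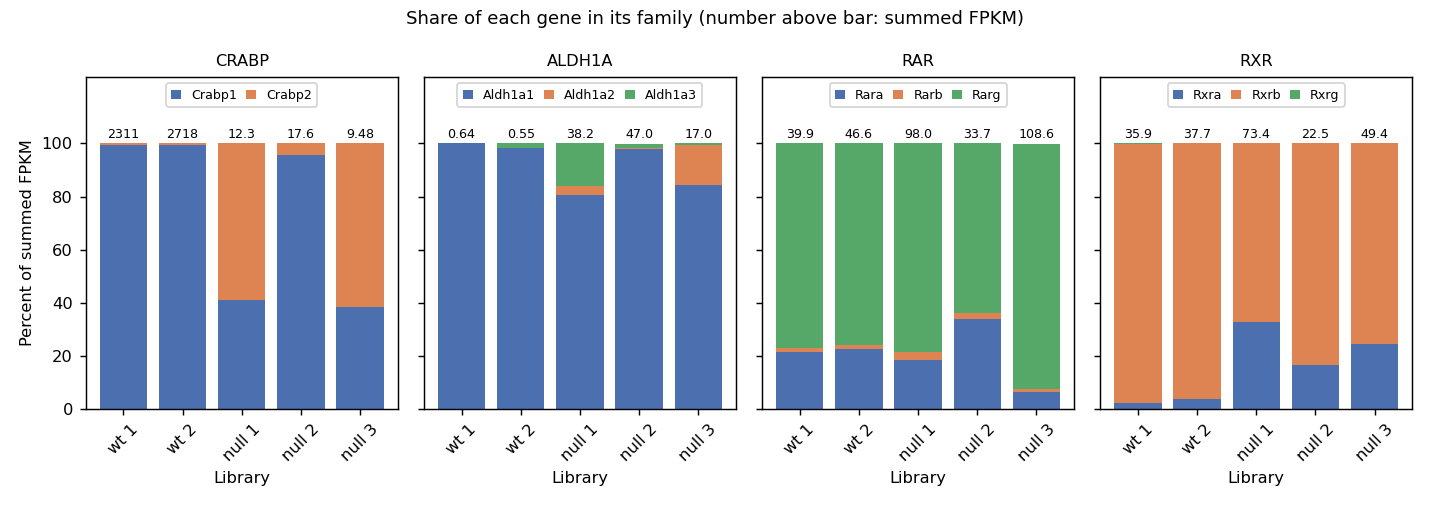
Bars give the percent of a family's summed FPKM that each gene holds in each library, and the number above each bar is that sum, for the binding proteins (CRABP), the ALDH1A enzymes and the RAR and RXR receptors. The summed ALDH1A level was below 1 FPKM in both wt libraries and 17.0 or more in the null libraries, whereas Rarg held most of the RAR sum in all 5 libraries.

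The receptors differed less. Rarg was the most abundant in every library, with an FPKM of 30.7 and 35.5 in wt cells against 77.1, 21.5 and 100.6 in null 1, 2 and 3. It held between 63.9% and 92.6% of the RAR sum. Null 2 was below and the other null libraries above both wt libraries, so the groups overlapped. Rara had 8.57 and 10.52 in wt cells against 17.92, 11.40 and 6.87 in the null libraries. Null 3 was below the wt values, again an overlap, and the fitted log2 fold change of -0.23 changed its sign in 7 of 15 other analyses.

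Rarb, whose response element is printed above, was the least abundant receptor in every library. It measured 0.55 and 0.61 FPKM in wt cells against 2.99, 0.79 and 1.13 in null 1, 2 and 3. All null libraries were higher in FPKM, null 2 by little, and in CPM after TMM normalization null 2, at 1.81, lay just under wt 1, at 1.84. Only null 1 stood clearly apart, with 252 counts against 47 and 53 in the wt libraries.

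Of the 9 genes, 5 had every null library above both wt libraries in FPKM and 2 had every null library below, while Rara and Rarg overlapped. Over the 13240 genes tested, 35.9% lay entirely higher in this way and 7.22% entirely lower. In CPM after TMM normalization the 9 genes gave 4 higher and 2 lower, with 22.6% of all genes entirely higher and 17.3% entirely lower. These counts follow in part from how the genes were chosen and nothing is read from them. All 9 genes passed the filter on low counts, Aldh1a2 and Aldh1a3 only through the null libraries.

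The wt libraries, whose comparison played no part in the choice, were within 2-fold of each other for 6 of the 7 genes with more than 1 read in them. They differ in the TSH of their labels, with 1 library each and no replicate check. On log2(FPKM + 0.1), replicate 2 (with TSH) minus replicate 1 lay between -0.21 for Aldh1a1 and 0.45 for Crabp2 in these 6. Dhrs3 was the exception at 1.19, from 24 counts without and 60 counts with TSH. Past 2-fold were 12.7% of all genes tested. Aldh1a2 and Aldh1a3, with at most 1 read in wt cells, could not have differed by that much on this scale.

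Rara, Rarg and Dhrs3 were each listed with more than 1 RefSeq transcript, and how their level was divided among these was not used to choose them. For Dhrs3, the transcript NM_001172424 held 83.6% and 89.1% of the gene's FPKM in wt cells against 49.0%, 43.5% and 62.6% in null 1, 2 and 3. The other, NM_011303, with 0.09 and 0.15 FPKM in the wt libraries, reached 28.3, 7.92 and 25.2. All null libraries thus had a larger share of the second transcript, but the wt shares rest on few reads.

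For Rara, NM_001176528 held 10.0% and 13.5% in wt cells against 43.3%, 32.5% and 32.5% in the null libraries, without overlap. NM_009024 held 71.5% and 54.5% against 54.2%, 23.9% and 43.2%. For Rarg, NM_001042727 held 65.0% and 75.3% against 48.5%, 72.0% and 62.8%, and the groups overlapped. Transcripts of one gene share most of their sequence, so the division of reads among them is an estimate, and these shares were not tested.

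**Figure D3:**
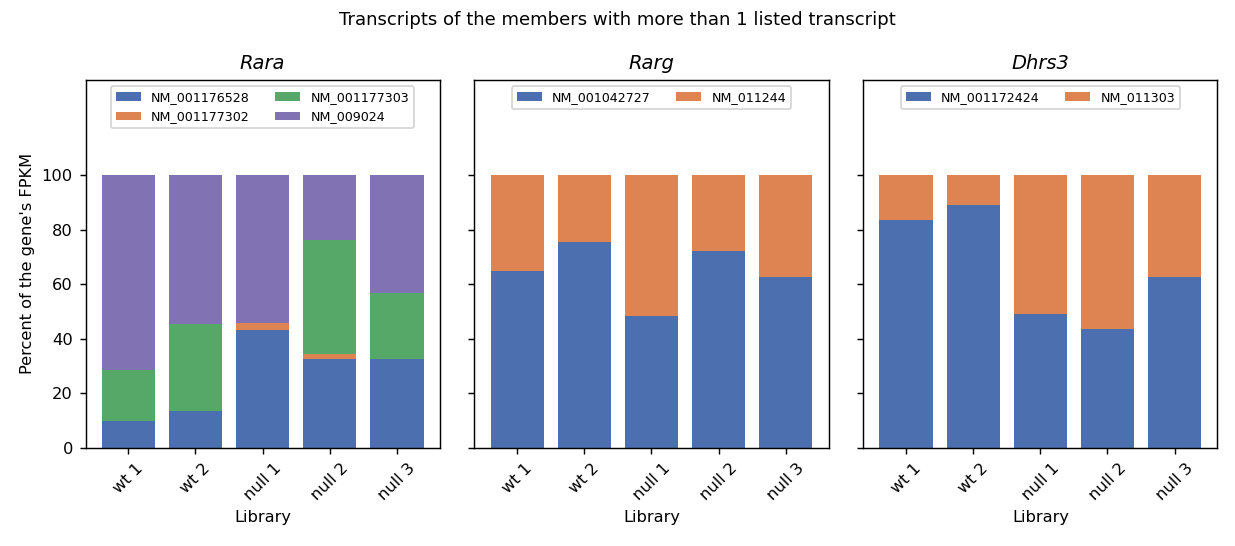
Bars give the percent of a gene's FPKM assigned to each RefSeq transcript in each library, for the 3 members listed with more than 1 transcript. The share of NM_011303 in Dhrs3 and of NM_001176528 in Rara was larger in every null library than in both wt libraries.

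The rest of the pathway was read from 67 further genes in 7 lists of textbook roles, compared between the groups with edgeR's quasi-likelihood test. Of these genes 62 were listed and 48 passed the filter. At an adjusted p under 0.05, 0 were higher and 0 lower, as for all genes tested (0% in each direction). At an unadjusted p under 0.05, 13 of the 48 were higher and 3 lower, against 12.4% and 6.07% of all genes. DESeq2, another count test, called 11 higher and 1 lower, where it called 8.41% and 3.68% of all genes.

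Longer transcripts were higher in the null libraries as a rule, which bears on every list. In 5 classes of transcript length the median log2 fold change over all genes was -0.45 (up to 1592 bases), -0.10, 0.25, 0.59 and 1.20 (from 4577 bases). The part of length in the values of single genes was not tested. The median over all genes was 0.29, and 0.61 in limma on log2(FPKM + 0.1), so differences in FPKM run higher than the fitted ones. Crabp1, Crabp2 and Dhrs3 belong to the shortest class and Aldh1a1 to the next.

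The genes of retinol uptake and transport had a median log2 fold change of -1.29 over 4 genes tested. It ranged from -3.18 with the replicate block, which leaves null 3 out of the comparison, to -0.02 under a minimum of 10 counts per library. The median was -2.55 without null 3 and -0.74 without wt 2. Rbp2, a retinol binding protein of the intestine, had 5.18 and 12.5 FPKM in wt cells against 0, 3.41 and 0.10 in null 1, 2 and 3 (log2 fold change -3.59, adjusted p = 0.332 by edgeR). It was thus below the wt values in all null libraries, without passing the test. Fabp5, a fatty acid binding protein that can carry retinoic acid to another receptor, was far more abundant, with 92.6 and 165.9 against 49.6, 92.7 and 465.1 FPKM, and overlapped between the groups.

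Retinol and retinal conversion showed values on both sides, with a median log2 fold change of -0.61 over 12 genes tested. Rdh10, the main retinol dehydrogenase of retinoic acid synthesis in the embryo, was at 5.14 and 2.76 FPKM in wt cells against 34.4, 67.6 and 15.1 in null 1, 2 and 3. Its log2 fold change was 2.74 (adjusted p = 0.192 by edgeR, 0.0081 to 0.833 over the alternatives), and the order of the null lines was that of Aldh1a1, the enzyme of the next step. Rdh11, which can reduce retinal, had 29.9 and 52.9 against 19.4, 20.5 and 18.0 FPKM (log2 fold change -1.71, adjusted p = 0.192 by edgeR, 0.0136 to 0.833 over the alternatives). Rdh12 had 6.66 and 9.12 against 0.96, 4.97 and 3.94, and Rdh5 1.23 and 1.27 against 0.64, 0.57 and 0.71. Of the 12 genes, 1 was higher in FPKM in all null libraries and 3 were lower, where 35.9% and 7.22% of all genes were. The 3 lower genes, Rdh11, Rdh12 and Rdh5, did not pass edgeR's test. They were also lower in CPM after TMM normalization, as were 17.3% of all genes. Their length classes had medians of -0.45 (Rdh11 and Rdh5) and -0.1 (Rdh12). Adh5, the most abundant of the list with 116.7 and 73.9 against 53.6, 104.3 and 127.0 FPKM, overlapped.

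Of 3 genes tested for the handling of stored retinoids, Scarb1 and Cd36 were higher in FPKM in all null libraries, as were 35.9% of all genes. In CPM after TMM normalization Scarb1 overlapped, with null 2 at 44.6 below wt 1 at 54.6 and wt 2 at 71.5. Scarb1, a receptor for lipoproteins and carotenoids, had 17.9 and 20.5 FPKM in the wt libraries, against 47.3, 21.4 and 74.0 in the null libraries, while Dgat1 overlapped at between 6.96 and 21.7 FPKM. Cd36, a fatty acid and carotenoid transporter, had 0 and 1 counts in wt cells against 23, 13 and 15. This was a ratio of 23.6 after TMM normalization, with an exact 95% binomial interval from 4.05 to 951 that covers counting error only. By library totals the ratio was 35.2. Cd36 passed the filter only through the null libraries. Lrat, which makes retinyl esters, was listed in no library. Of the degrading enzymes, Cyp26b1 had 1.28 and 0.81 FPKM in the wt libraries, against 1.05, 0.94 and 2.65 in the null libraries. The groups overlapped, at a log2 fold change of -0.01, or -1.22 relative to genes of its length class. Cyp26c1 had at most 4 counts in any library, and Cyp26a1, the degrading enzyme best known as induced by retinoic acid, was listed in none.

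Rxrb was the main partner receptor in every library. It had 35.1 and 36.3 FPKM in the wt libraries, against 49.3, 18.8 and 37.4 in the null libraries, an overlap. Rxra had 0.83 and 1.38 against 24.1, 3.73 and 12.0 FPKM (log2 fold change 3.02, adjusted p = 0.201 by edgeR, 0.014 to 0.833 over the alternatives). It made up 2.3% and 3.7% of the RXR sum in wt cells against 32.8%, 16.6% and 24.3% in the null libraries. Rxra belongs to the longest transcripts, whose median was 1.20. Rxrg had at most 1 count in each library.

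Coregulators of the receptors had the highest list median, 2.30 over 9 genes tested, and 7 of them were higher in FPKM in all null libraries, as were 35.9% of all genes, and 7 in CPM after TMM normalization, as were 22.6%. Their median length was 7571 bases, and relative to genes of the same length class the list median was 1.10. The corepressor Ncor1 had 1.17 and 0.81 FPKM in the wt libraries, against 7.60, 8.65 and 6.91 in null 1, 2 and 3 (log2 fold change 2.46, adjusted p = 0.180 by edgeR, 0.000532 to 0.833 over the alternatives). The acetyltransferase Ep300 had 0.17 and 0.31 against 3.25, 3.31 and 2.01, and Nrip1, a corepressor known to be induced by retinoic acid, 0.11 and 0.06 against 1.14, 1.13 and 1.35. Here the 3 null lines were close to each other, unlike in the ALDH1A genes. The deacetylase Hdac3, the shortest transcript of the list, overlapped, with 45.2 and 47.6 against 45.8, 68.8 and 55.1 FPKM.

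**Figure D4:**
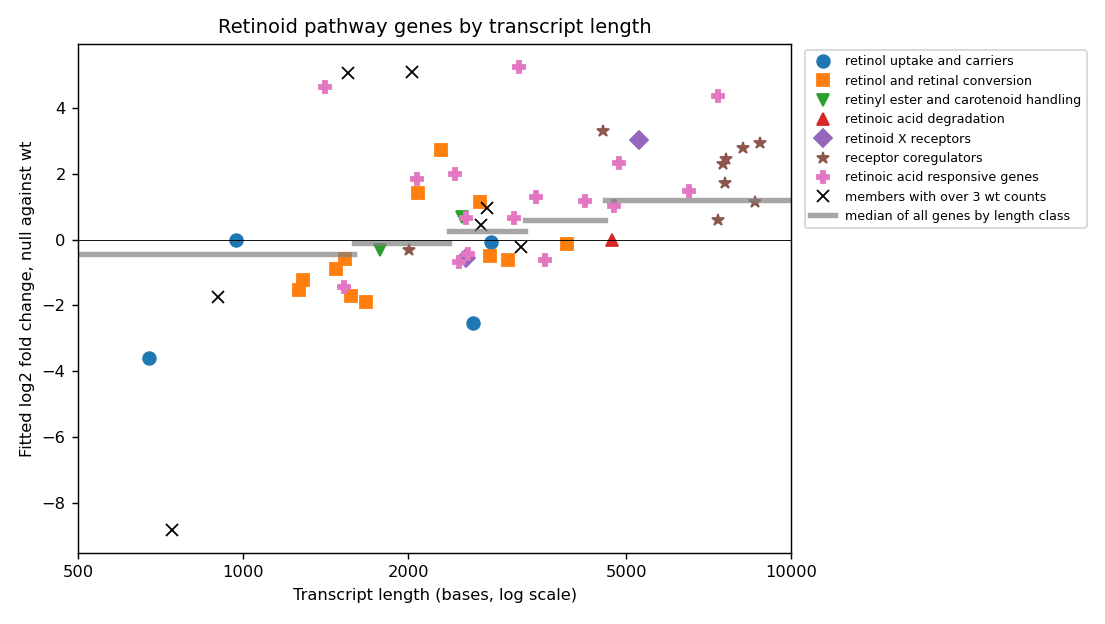
Each point is a retinoid gene tested, placed by its transcript length (bases, log scale) and its fitted log2 fold change of null against wt libraries, and grey bars give the median of all genes in 5 length classes. Genes with at most 3 counts in each wt library are not drawn. The coregulators other than Hdac3 and Nrip1 lie in the class of the longest transcripts, where the median of all genes is 1.20, and Crabp1 lies far below every other gene drawn at -8.82.

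Genes known to respond to retinoic acid had a median log2 fold change of 1.31 over 17 tested, and 0.60 relative to their length classes. Tgm2, a transglutaminase and classical target, was nearly level in FPKM, with 79.0 and 78.3 in wt cells against 73.5, 85.9 and 69.0, at a fitted log2 fold change of -0.63. Gprc5a, also known as a gene induced by retinoic acid, had 40.0 and 28.2 against 382.7, 69.0 and 73.9 FPKM (log2 fold change 1.86, adjusted p = 0.323 by edgeR). Bhlhe40 overlapped, at 13.6 and 24.1 against 69.7, 17.2 and 46.3. Foxa1, a transcription factor of endodermal epithelia, had 0 and 4 counts in wt cells against 218, 32 and 98. Of the 17 genes, 7 were higher and 1 lower in FPKM in all null libraries, where 35.9% and 7.22% of all genes were. In CPM after TMM normalization 7 were higher and 3 lower, where 22.6% and 17.3% of all genes were. Stra8 and Hoxb1 were listed in no library.

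Genes with a profile like that of Crabp1 or Aldh1a1 were sought over the 5 libraries by the root mean square difference of centred log2(FPKM + 0.1) values, among 12193 other genes. Nearest to Crabp1 was Vip, a neuropeptide, at 0.46, with 161.7 and 159.0 FPKM in the wt libraries, against 0.07, 0.83 and 0.02 in the null libraries. The next were Ubb-ps, Eno1b, Cxcl14 and Car9, at 1.02 to 1.33, of which Ubb-ps and Eno1b resemble other genes so closely that their counts are uncertain. Nearest to Aldh1a1 was Trp53i11, at 0.35, with 0.33 and 0.45 against 21.7, 29.8 and 5.85 FPKM. Slc25a43, Slc22a23, Lef1 and Ctdspl followed at 0.50 to 0.55. Slc25a43 and Lef1 had 0 counts in both wt libraries, so their likeness depends on the value added to the FPKM. Their places were 332 and 368 with 1 added, where Ctdspl came to place 81 and Slc22a23 to place 2. With 1 in place of 0.1 added to the FPKM, 3 of the 5 genes nearest to Crabp1 and 2 of the 5 nearest to Aldh1a1 were shared, and the nearest gene was then Cxcl14 for Crabp1 (0.50) and again Trp53i11 for Aldh1a1 (0.36).

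The labels call the cells thyroid epithelial, and the markers gave a mixed picture that bears on all levels above. Of 12 thyroid follicular markers, 2 to 4 reached 1 FPKM in any library. Foxe1, Duox2, Duoxa2 and Slc26a4 were at or near 0 throughout, and Tg reached at most 0.86. The list summed to 15.3 and 20.6 FPKM in the wt libraries, against 35.2, 68.5 and 4.84 in null 1, 2 and 3, led by Nkx2-1 in wt cells and null 2 and by Pax8 in null 1 and null 3. Pax8, a thyroid factor, was 0.40 and 0.17 in wt cells against 18.2, 12.8 and 2.56 in the null libraries, which is the same order of lines as for Aldh1a3 but not for Aldh1a1. Tg went the other way, at 0.80 and 0.86 in wt cells against 0.04, 0.51 and 0.34 in null 1, 2 and 3. Others overlapped between the groups. Nkx2-1 had 9.21 and 15.02 against 9.26, 34.83 and 0.26, and Slc5a5 1.03 and 0.36 against 6.48, 0.05 and 0.14.

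The null lines differed widely in epithelial and fibroblast markers. The 10 epithelial genes, led by Krt8 in wt cells, Krt7 in null 1 and null 3 and Krt18 in null 2, summed to 1110.1 and 1786 FPKM in the wt libraries, against 14164, 706 and 1466 in null 1, 2 and 3, and Epcam and Cdh1 were listed at 0 in null 2. The 12 fibroblast genes, led by Fn1 in null 1 and by Vim in the other 4 libraries, summed to 1972 and 3819.9 against 321, 3591 and 4219. Of the 12, 8 reached 1 FPKM in each wt library and 3, 8 and 11 in null 1, 2 and 3. Col3a1, Pdgfrb and Acta2 were at 0 in null 1, while Dcn, Postn and Thy1 were at 84.7, 101.6 and 88.5 FPKM in null 3 and at 0.24 or less in every other library. Others went the other way: Fn1 was at 233.9 FPKM in null 1, above wt 1 at 122.5 and wt 2 at 87.7, and Lum at 0.02 in null 3, below wt 1 at 0.14. Aldh1a2, Dhrs3 and Rarg were highest in null 3, Aldh1a3, Rara, Rarb and Rxra in null 1, and Aldh1a1 in null 2. The part of these markers in the retinoid values was not tested. The immune genes Ptprc and Cd3e were at 0 in all libraries, and the list, led by Cd68, summed to between 1.22 and 59.8. The endothelial list, highest for Kdr over all libraries, summed to at most 0.66 and the C cell list, highest for Calcb over all libraries, to at most 4.89 FPKM.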

How the data were processed

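Total RNA was sequenced from TruSeq libraries on an Illumina HiSeq. For each RefSeq transcript the authors deposited an expected count (an estimate, often fractional) and its FPKM, which corrects for length and depth, with transcripts listed from an FPKM of 0.01 upward. The aligner, counting program, build and annotation are not given in the sources used here, so no coordinates are printed but those of the RefSeq promoter table (GRCm38.p6).

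Both values were summed per NCBI gene number, and the sums of counts were rounded. Of 17923 genes, 17866 matched a symbol in the RefSeq table. Groups were compared with edgeR 4.0.16 in R 4.3.3 (TMM, filterByExpr, quasi-likelihood test, Benjamini-Hochberg adjustment, threshold 0.05) over 13240 genes. The alternatives were DESeq2 1.42.0, no filter, a minimum of 10 counts in all libraries, limma 3.58.1 on log2 of FPKM plus 0.1, 0.01 or 1 (genes with an FPKM of 0.5 in 2 libraries), leaving out each library, the replicate number as a block, rescaled FPKM and the pair without TSH. A comparison with genes of like length was added after the trend with length was seen. The fits were tested on simulated data with much less spread between libraries than these data have. That does not show how the fits behave at the spread found here.

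The 9 members and all lists were chosen with earlier results of these data known. Of the other lists, genes were named by level (up to 3), or by size of change among those without overlap and with a mean FPKM of at least 1 (up to 2). Some genes that this rule names are not reported here. Libraries of a group differed beyond counting noise in at least 68.0% of genes, so none was taken for a library deposited again, which does not make them biological replicates. Figures were drawn with matplotlib 3.10.9.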

Additional observations from a re-analysis of the deposited data

How the results depend on the processing

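Directions of Crabp1 (log2 fold change between -9.81 and -7.83), Aldh1a1 (4.16 to 5.87), Dhrs3 (4.33 to 6.42), Crabp2 (-2.63 to -0.26) and Rarb (0.04 to 2.25) held in 15 other analyses each. Crabp1 and Aldh1a1 were chosen for their directions in these same libraries, so for this pair that could hardly come out otherwise and gives no further support. Aldh1a1 moved by more than the spread of the null libraries only in limma on log2(FPKM + 1), to 4.16. Rara took both signs, and Rarg was at -0.24 with the replicate block and 0.00 without null replicate 3. Over all genes, DESeq2 called 1113 higher and 487 lower. Limma with 0.1, 0.01 and 1 added called 1 higher each and 5, 3 and 7 lower. Without the filter 4 were called lower, and with at least 10 counts in every library 1. Of the other pathway genes DESeq2 called 11 higher and 1 lower. Their median log2 fold change of 0.69 was 1.08 in limma on log2(FPKM + 0.01), 0.22 with the replicate block and 0.34 relative to their length classes. The median of all genes was 0.21 with DESeq2 and 0.61 in limma on log2(FPKM + 0.1). Retinoic acid degradation, with 1 gene tested, changed sign in 7 of 13 analyses, from -1.22 relative to its length class to 0.43, and the RXR list reached -0.63 without the filter, which added Rxrg. The replicate block also gave 0 calls higher and 0 lower. Null 3 is alone in its block, so all values from the replicate block compare the other libraries only, and the fit has little power to call a gene. Deviations of same-numbered libraries correlated at -0.11 in both pairs, which with 2 wt libraries cannot settle a pairing. The labels tie no number to a shared animal, batch or day, though wt 1 and null 1 are both labelled without TSH. Leaving out 1 library left 0 calls in each direction. Fitted values of genes at 3 counts or fewer in wt cells depend on the setting, from 1.04 to 9.75 for Aldh1a2 and from 1.26 to 10.91 for Aldh1a3, and at this depth null replicate 2, with 4 counts of Aldh1a2, is itself near the limit.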
